A study of Mus musculus with 4 samples.

Results

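The genes described here carry high-energy phosphate between the mitochondria and the contractile and pumping machinery of the heart muscle cell. They are the creatine transporter gene Slc6a8, the creatine kinase genes Ckm, Ckmt2 and Ckb, the adenylate kinase gene Ak1, the adenine nucleotide translocase genes Slc25a4 and Slc25a5, and the voltage-dependent anion channel genes Vdac1, Vdac2 and Vdac3. These 10 genes were chosen by name, with earlier results of these data known. Each was found on 1 of the 48432 gene rows of the deposited table with an estimate in both groups. Poly(A)-selected RNA of cardiomyocytes released from mouse hearts by Langendorff perfusion was sequenced in 4 libraries, 2 in each of 2 groups. The MHC group carries the genotype label MHC, which the labels do not spell out. The Rbfox2 OE group carries the genotype label RbFox2 and comes from mice that overexpress RBFOX2, an RNA-binding protein that regulates splicing. The series title names the non-muscle isoform of RBFOX2. Both groups have the strain label C57BL x FVB, and both received a doxycycline diet for 3 days, so the MHC mice were exposed to doxycycline as well. The promoter of the transgene, the age and sex of the mice and the number of mice behind each library are not given in the sources used here.

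As background, the heart regenerates ATP in its mitochondria and spends it at myofibrils and ion pumps, and a phosphate shuttle links the sites. Mitochondrial creatine kinase passes phosphate from newly made ATP to creatine, and cytosolic creatine kinase uses the phosphocreatine to rebuild ATP where it is spent. Adenine nucleotide translocases exchange ATP for ADP across the inner mitochondrial membrane, and voltage-dependent anion channels carry nucleotides and creatine compounds through the outer one. Adenylate kinases pair ADP molecules to form ATP and AMP, and AMP is the signal read by the AMP-activated kinase.

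Each value is an FPKM (fragments counted per length of transcript, scaled to the fragments sequenced) that the authors gave once per group, pooled over its libraries, with a lower and an upper bound. Parentheses after an FPKM hold these bounds, and of 2 values given in turn the first is MHC and the second Rbfox2 OE. There is no value per library, so no spread between replicates, no SD and no test could be given, and the depth in reads is unknown. What confidence the bounds stand for is not given in the sources used here, so bounds that do not overlap are a description and not a known error rate. Folds are log2 ratios, Rbfox2 OE divided by MHC, with a pseudocount of 1 FPKM. This constant pulls the ratios of weakly expressed genes toward 0. The range behind each ratio sets the lower bound of one group against the upper bound of the other. The background is the 11695 genes whose mean over the groups reached 1 FPKM and that had an estimate in both groups, of which 3112 reached 20 FPKM, as all 10 genes do. Rbfox2 itself, which checks the labels, stood at 14.7 FPKM (10.4 to 19.0) in MHC and at 293 FPKM (214 to 373) in Rbfox2 OE.

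The deposited values of all 10 genes were lower in Rbfox2 OE than in MHC, and the authors' bounds were apart for 4 of them, Slc6a8, Ak1, Ckmt2 and Vdac3. On rescaling without mitochondrial and the most abundant genes, Slc25a5 turned to a log2 ratio of 0.054 and the other 9 stayed below 0, where 45.5% of the tested genes did. As deposited, among the tested genes 53.8% were lower by any size, and among those reaching 20 FPKM 60.4% were. Bounds were apart in the lower direction for 9.33% of the tested genes and for 12.6% of those reaching 20 FPKM. The median log2 ratio of the 10 genes was -0.54, beside -0.06 over all tested genes and -0.16 over those reaching 20 FPKM. A ratio at or beyond 2-fold in the lower direction was reached by 2 of the 10 genes, Slc6a8 and Ak1. It was reached by 1172 of the 11695 tested genes and by 13.8% of those reaching 20 FPKM. The count of 2 thus lies near its background. None of the 10 was higher at 2-fold or with bounds apart, where the shares among genes reaching 20 FPKM were 5.85% and 5.69%. Of all 11695 tested genes, 813 were higher at 2-fold, and bounds were apart upward for 6.66%. In bulk RNA, fewer cells of a type and less RNA per cell cannot be told apart.

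**Figure D1:**
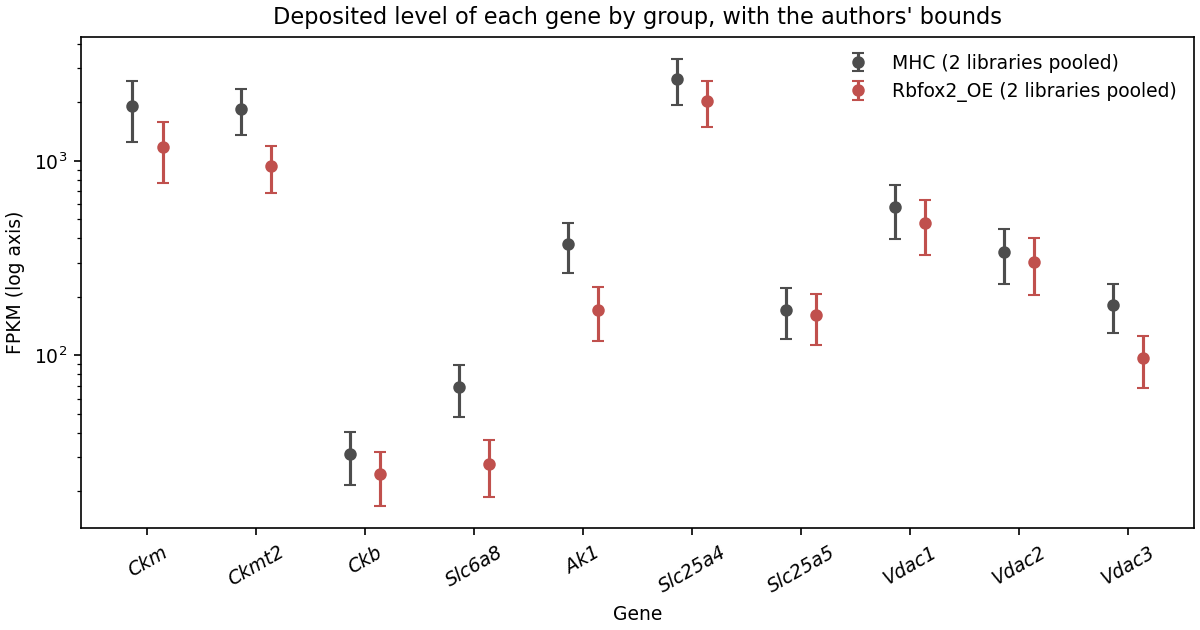
FPKM of the 10 genes on a log axis, as deposited for MHC (grey) and Rbfox2 OE (red), each point pooled over 2 libraries and each bar running from the authors' lower to upper bound. The red point is below the grey one for each gene, and the bars are apart for Slc6a8, Ak1, Ckmt2 and Vdac3.

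Creatine supply was represented by Slc6a8 (ENSMUSG00000019558.14), which encodes the sodium- and chloride-dependent transporter that brings creatine into the cell, since muscle takes up rather than makes it. The gene lies on GRCm38 at chrX:73673150-73682502, plus strand. It stood at 68.9 FPKM (48.3 to 89.5) in MHC and at 27.6 FPKM (18.7 to 36.6) in Rbfox2 OE, or 40.1% of the MHC value. The log2 ratio was -1.29, with a range from the bounds of -2.20 to -0.39. This was the lowest ratio of the 10 genes, and 5.71% of the tested genes had a lower one. Its level moved from rank 1019 to rank 2175 among the tested genes. The enzymes that make creatine, taken from the list of related genes, were listed at low levels. Gatm, the first enzyme of creatine synthesis, stood at 0.900 FPKM in MHC and 2.36 FPKM in Rbfox2 OE, and Gamt, the second, at 3.10 FPKM and 3.56 FPKM, both with overlapping bounds. Both were named after their values were seen.

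The creatine kinases differed in level far more than in ratio. Ckm (ENSMUSG00000030399.2, chr7:19404776-19422841, plus strand), the muscle cytosolic enzyme that binds the sarcomere, stood at 1915 FPKM (1246 to 2584) in MHC and at 1177 FPKM (767 to 1587) in Rbfox2 OE. The log2 ratio was -0.70, and its range from -1.75 to 0.35 includes 0. Ckmt2 (ENSMUSG00000021622.3, chr13:91853387-91876885, minus strand), the sarcomeric mitochondrial enzyme of the intermembrane space, stood at 1855 FPKM (1358 to 2351) in MHC and at 938 FPKM (683 to 1194) in Rbfox2 OE. These bounds do not overlap. The log2 ratio of Ckmt2 was -0.98, just short of 2-fold, with a range of -1.78 to -0.19. Ckb (ENSMUSG00000001270.8, chr12:111669361-111672338, minus strand), the cytosolic form typical of brain and smooth muscle, stood at 31.0 FPKM (21.5 to 40.4) in MHC and at 24.4 FPKM (16.9 to 32.0) in Rbfox2 OE. Its log2 ratio was -0.33, with a range of -1.21 to 0.55.

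Per length, Ckm and Ckmt2 messages were about equally abundant in MHC, with 50.4% and 48.8% of the summed creatine kinase FPKM, while Ckb held 0.815%. In Rbfox2 OE the shares were 55.0%, 43.8% and 1.14%. The sum over the creatine kinases, with the other mitochondrial gene Ckmt1 at under 1 FPKM in both groups, was 3801 FPKM in MHC and 2141 FPKM in Rbfox2 OE, or 56.3%. Ckm exceeded Ckmt2 by a factor of 1.03 in MHC and 1.25 in Rbfox2 OE, and it exceeded Ckb by factors of 61.8 and 48.2. The ranges of the log2 ratios of Ckm, Ckmt2 and Ckb overlap each other, and the table gives no bounds for a share.

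The 250 bases before the RefSeq start sites (GRCm38.p6) are shown for the creatine kinases and for the start of Ak1 that is followed by a TATA match. Ak1 has other RefSeq starts, whose windows are not shown. These phosphate-transferring kinases run from 31.0 to 1915 FPKM in MHC, and a link between the motifs and the level was not tested. They are written 5′ to 3′ on the strand of the gene: Ckm at chr7:19410844-19411093 (plus), Ckmt2 at chr13:91876886-91877135 (minus), Ckb at chr12:111672339-111672588 (minus) and Ak1 at chr2:32625187-32625436 (plus). The Ckm and Ak1 stretches lie within the annotated genes. Capitals mark matches on either strand to any of the 4 motifs searched. The nuclear receptor element was searched as AAGGTCA. The E-box bound by muscle basic helix-loop-helix factors was searched as CAGCTG. For the TATA box the letters were TATAAA. For the GC box bound by SP-family factors they were GGGCGG. No match overlapped another in these stretches.
Ckm: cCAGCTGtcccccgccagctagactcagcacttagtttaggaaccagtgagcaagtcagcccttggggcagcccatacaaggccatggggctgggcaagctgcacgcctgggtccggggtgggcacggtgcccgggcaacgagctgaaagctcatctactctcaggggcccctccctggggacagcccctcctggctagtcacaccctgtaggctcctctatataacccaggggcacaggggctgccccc
Ckmt2: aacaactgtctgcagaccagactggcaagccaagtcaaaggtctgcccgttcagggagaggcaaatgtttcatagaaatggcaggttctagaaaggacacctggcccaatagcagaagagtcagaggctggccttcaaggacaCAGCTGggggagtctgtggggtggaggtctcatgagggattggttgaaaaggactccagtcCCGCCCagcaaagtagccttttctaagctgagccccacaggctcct
Ckb: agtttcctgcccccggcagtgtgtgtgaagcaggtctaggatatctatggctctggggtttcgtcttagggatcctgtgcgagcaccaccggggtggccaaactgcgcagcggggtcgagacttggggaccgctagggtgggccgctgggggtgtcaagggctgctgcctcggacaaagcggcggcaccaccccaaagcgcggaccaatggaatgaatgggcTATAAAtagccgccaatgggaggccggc
Ak1: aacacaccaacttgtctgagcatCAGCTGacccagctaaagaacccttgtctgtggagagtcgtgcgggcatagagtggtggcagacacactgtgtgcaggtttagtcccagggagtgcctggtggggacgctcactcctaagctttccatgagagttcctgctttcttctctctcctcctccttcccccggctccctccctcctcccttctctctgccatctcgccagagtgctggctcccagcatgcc
The E-box letters stood 249 bases before the start of Ckm, 107 before that of Ckmt2 and 227 before the Ak1 start shown. They were absent from the Ckb window. Among the other Ak1 starts, they stood 177 bases before that at chr2:32621758. They were absent from the windows of the Ak1 starts at chr2:32628390 and chr2:32629500, of which the former held the receptor element. The TATA letters stood 28 bases before the start of Ckb. Only the exact letters were counted, so a near match such as tatataa toward the end of the Ckm stretch is not marked. In Ak1 they began 21 bases after the start at chr2:32625437, outside the stretch shown. Ckmt2 also held the GC box on the opposite strand, 46 bases before its start. Of all 32851 RefSeq promoter windows, which run from 250 bases before to 50 after a start, 16.3% hold the E-box letters, 13.6% the TATA letters, 35.7% the GC box and 4.72% the receptor element. RefSeq windows were matched for 7 of the 10 genes, not for Slc6a8, Vdac2 and Vdac3. The windows of Slc25a4, Slc25a5 and Vdac1, whose stretches are not shown, held neither the E-box nor the TATA letters. The GC box occurred in the windows of Slc25a4, Slc25a5 and the Vdac1 start at chr11:52361597, which also held the receptor element. The window of the Vdac1 start at chr11:52360851 held none of the 4 motifs. These matches are letters in a window and do not show binding.

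Ak1 (ENSMUSG00000026817.14, chr2:32621758-32635058, plus strand) encodes the cytosolic adenylate kinase of muscle, which links creatine kinase flux to AMP. It stood at 373 FPKM (266 to 480) in MHC and at 171 FPKM (118 to 224) in Rbfox2 OE, or 45.8% of the MHC value. The bounds are apart, and the log2 ratio was -1.12 with a range of -2.01 to -0.25. Of the tested genes, 7.90% had a lower ratio.

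Both adenine nucleotide translocase genes had lower deposited values in Rbfox2 OE with overlapping bounds. Slc25a4 (ENSMUSG00000031633.4, chr8:46206797-46211284, minus strand), the form of heart and skeletal muscle, was the most abundant of the 10 genes, at 2628 FPKM in MHC (1926 to 3330) and 2033 FPKM in Rbfox2 OE (1488 to 2577). It ranked 16 among the tested genes in MHC and 17 in Rbfox2 OE. Its log2 ratio was -0.37, with a range of -1.16 to 0.42. Slc25a5 (ENSMUSG00000016319.3, chrX:36795651-36798807, plus strand), the form of proliferating and many other cells, stood at 171 FPKM (122 to 221) in MHC and at 160 FPKM (114 to 207) in Rbfox2 OE. Its log2 ratio of -0.10 (range -0.95 to 0.76) was the nearest to 0 of the 10, below 0 as deposited and above 0 on rescaling. Slc25a4 made up 93.9% of the translocase FPKM in MHC and 92.7% in Rbfox2 OE, where Slc25a5 made up 6.12% and 7.31%.

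The voltage-dependent anion channels showed a spread of ratios within 1 family, set by Vdac3. Its value is uncertain, since 49.2% of the 50-base sequences in its coding transcripts also occur in other genes. That share was 1.84% for Vdac1 and 7.38% for Vdac2, as described below. Vdac1 (ENSMUSG00000020402.11, chr11:52360860-52389397, plus strand), the main channel of the outer mitochondrial membrane and a docking site for hexokinase, stood at 575 FPKM (396 to 755) in MHC and at 478 FPKM (330 to 626) in Rbfox2 OE. Vdac2 (ENSMUSG00000021771.13), which also restrains the cell death protein BAK, stood at 340 FPKM (233 to 447) and 303 FPKM (204 to 401). Their log2 ratios were -0.27 and -0.17, with overlapping bounds. Vdac3 (ENSMUSG00000008892.12, chr8:22577075-22593813, minus strand), the least abundant of the family, stood at 182 FPKM (130 to 234) in MHC and at 96.8 FPKM (68.1 to 125) in Rbfox2 OE.

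The bounds of Vdac3 were apart by a small margin, its log2 ratio being -0.90 with a range of -1.76 to -0.05. They overlapped once the groups were centred on the median gene or rescaled, which left 3 of the 10 genes with bounds apart under each, beside 8.41% and 7.11% of the tested genes in that direction. Vdac1 exceeded Vdac3 by a factor of 3.17 in MHC and 4.94 in Rbfox2 OE, and the share of Vdac3 in the family's FPKM was 16.6% and 11.0%. The shares of Vdac1 were 52.4% and 54.5%, and those of Vdac2 31.0% and 34.5%. The ranges of the 3 channels overlap.

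**Figure D2:**
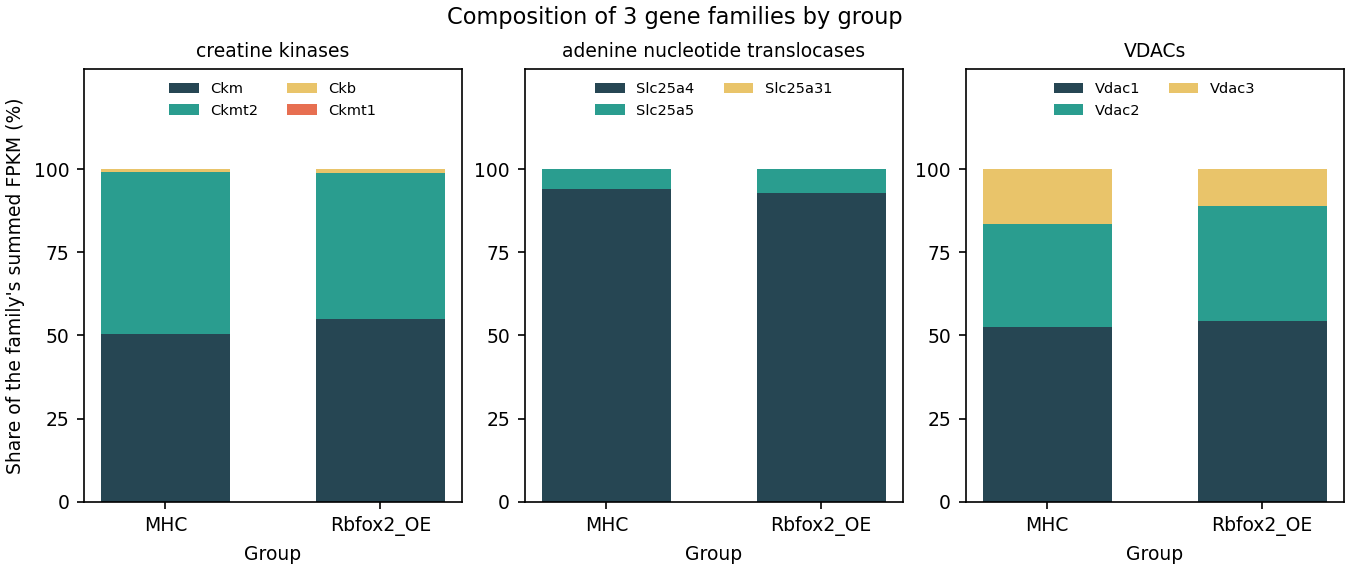
Share of each gene in the summed FPKM of its family (percent, stacked bars) in MHC and Rbfox2 OE, without error bars because the table gives no bounds for a share. Ckm takes 50.4% and 55.0% of the creatine kinases, Slc25a4 takes 93.9% and 92.7% of the translocases, and Vdac3 takes 16.6% and 11.0% of the channels.

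Set side by side, the 10 genes could be ordered by ratio but not told apart by their bounds. All 45 pairs of genes had overlapping ranges, and the values from -0.95 to -0.39 lay inside the range of every gene. The upper bounds of these genes lay 26.7% to 34.9% above the value, against a median distance of 38.4% (MHC) and 39.3% (Rbfox2 OE) over the tested genes.

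**Figure D3:**
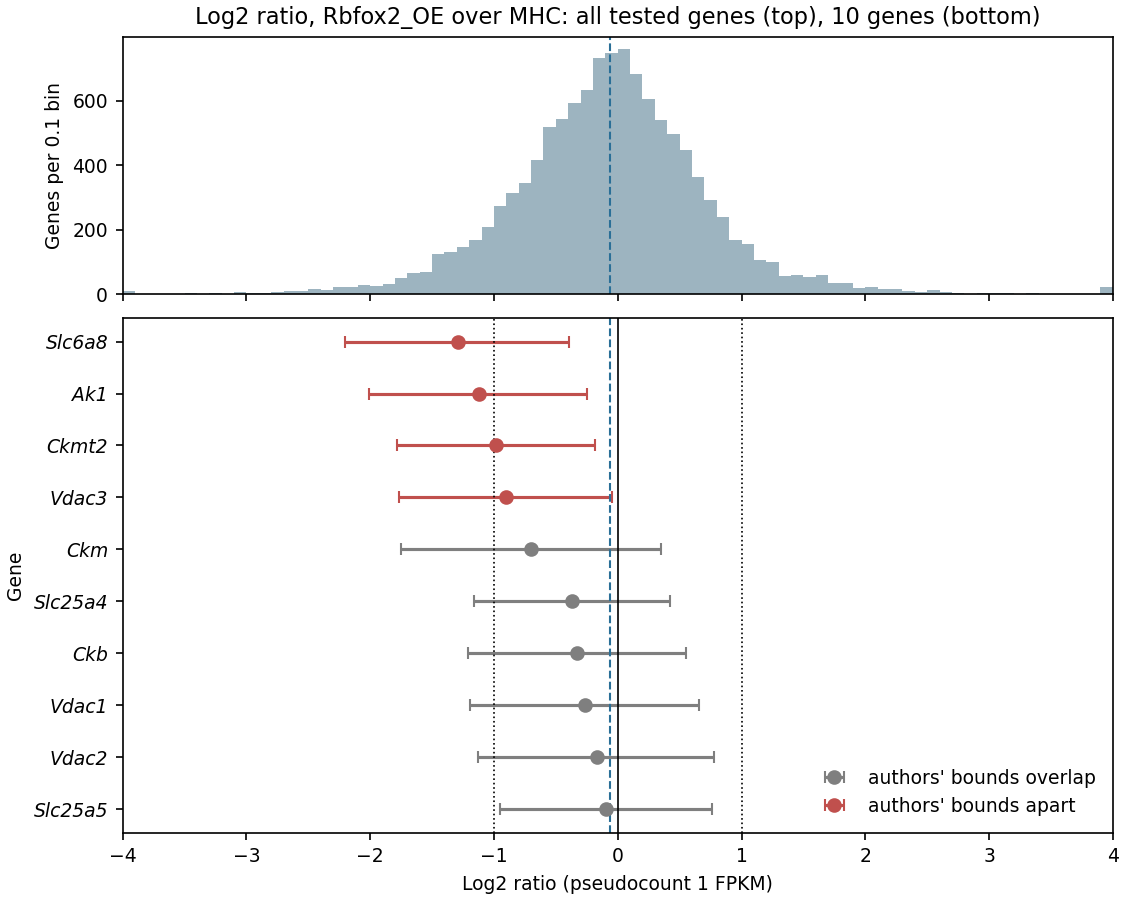
Top, number of the 11695 tested genes in each bin of the log2 ratio between Rbfox2 OE and MHC (values beyond the axis are counted in the end bins). Bottom, log2 ratio of each of the 10 genes with the range that the authors' bounds give, red where the bounds are apart, the dashed line marking the median of all tested genes (-0.06) and the dotted lines 2-fold. All 10 points lie left of 0, from -1.29 for Slc6a8 to -0.10 for Slc25a5.

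Several of these genes have near-identical copies elsewhere in the genome, which bears on how Cuffdiff could assign fragments. Of the 50-base sequences in the coding transcripts of Vdac3, 49.2% also occur in transcripts of other annotated genes, most of them in the pseudogene Vdac3-ps1, which the table lists at 1.52 FPKM in MHC and 0.722 FPKM in Rbfox2 OE. The share was 46.6% for Slc25a5, the gene sharing most of them being the processed pseudogene Gm5560 (0.600 FPKM and 0.397 FPKM), and 21.9% for Ckb. It was 7.38% for Vdac2 and 1.84% for Vdac1, and 0% for Ckm, Ckmt2, Ak1, Slc6a8 and Slc25a4. No gene sharing 50-base sequences with Vdac3, Slc25a5 or Ckb was listed above 1.52, 0.600 and 0.524 FPKM, respectively. How fragments from shared sequence were assigned was not tested, and the values of these 3 genes are uncertain for that reason. Antisense genes overlap Ckm (A930016O22Rik, at most 0.404 FPKM) and Ckmt2 (1700119I11Rik, listed at 0), and Comtd1 overlaps Vdac2 on the opposite strand. For Vdac2 the authors' locus, chr14:21831269-21856926, differs from the GENCODE M21 gene at chr14:21825238-21845879, plus strand.

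RBFOX proteins recognise UGCAUG in RNA, so the letters TGCATG were searched for on the transcript strand of the 3′ untranslated regions of GENCODE M21, a search added after the values were seen. They occurred in 4 of the 10 genes and in 30.3% of 21004 protein-coding genes, with 1 transcript taken per gene and without matching for length. The stretches of up to 30 bases around them are shown, transcript strand, with the match in capitals, to place the motif of the overexpressed protein in these genes.
Ckm, first base of the match at base 1443 after the stop codon: atcgggattaaaTGCATGtaccacc
Slc25a4, base 339: gaaaagcaccagTGCATGttttctttcagg
Slc25a4, base 381: gcgactccggtgTGCATGcctgtcctgacc
Slc25a4, base 561: gagtaagaatgtTGCATGcttaggaagtgc
Vdac2, base 291: cgtgccatggtgTGCATGtttgttttatgt
Vdac3, base 316: tacaccgtgtccTGCATGtcccagtccact
Slc25a4 held 3 matches in 666 bases, and 18.3% of genes with a region of like length (0.8 to 1.2 times) hold any. The like-length share was 38.5% for Ckm, 17.6% for Vdac2 and 13.0% for Vdac3. The Ckm match lies in the longer of its 2 annotated coding transcripts, whose region has 1455 bases, and not in the other, with 198. Slc6a8 and Ak1, with the lowest ratios, and Ckmt2 held none in regions of 1402, 1349 and 142 bases. Of genes with regions of like length, 37.0%, 35.8% and 3.63% hold any. Of the 4 genes with bounds apart, Vdac3 alone held the letters, and a relation between the letters and the ratios was not tested. A match is not a bound site, and the table holds no splicing or binding values.

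The related genes of the pathway were taken from 6 lists with 36 genes, of which 27 passed the minimum of 1 FPKM. The lists too were chosen with earlier results of these data known. Bounds were apart for 8 of these 27, all lower in Rbfox2 OE, beside 9.33% of the tested genes. On centring or rescaling, 7 of the 8 stayed apart, the exception being Hk1, while bounds came apart upward for Gatm under both and for Slc25a24, a calcium-regulated ATP-Mg carrier named for this after its values were seen, on rescaling. The median log2 ratio over the 27 was -0.44.

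Partners of the anion channel included 3 genes with bounds apart of 4. The other, Tspo, named after its values were seen, stood at 22.5 FPKM and 26.4 FPKM, a log2 ratio of 0.22 with overlapping bounds. Hk2, the insulin-responsive hexokinase that docks on VDAC, stood at 77.3 FPKM (54.2 to 100.3) in MHC and at 11.2 FPKM (7.35 to 15.1) in Rbfox2 OE, a log2 ratio of -2.68. Hk1, the constitutive hexokinase, stood at 73.9 FPKM (51.6 to 96.2) and 38.1 FPKM (26.5 to 49.7). Its log2 ratio was -0.94, with a range of -1.82 to -0.05. Ppif, which encodes cyclophilin D, a regulator of the permeability transition pore, stood at 166 FPKM (118 to 214) and 54.4 FPKM (38.0 to 70.9), a log2 ratio of -1.59. The ranges of Hk2 (-3.60 to -1.78) and Vdac1 (-1.19 to 0.66) do not overlap. The range of Hk2 also lies below those of Ckm, Ckb, Slc25a4, Slc25a5, Vdac2 and Vdac3, and overlaps those of Ckmt2, Ak1 and Slc6a8.

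Among the nucleotide and phosphate carriers, Slc25a3, which brings phosphate into the matrix for ATP synthesis, had bounds apart, and the other 3 tested did not. Those 3, named after their values were seen, had log2 ratios above 0: Slc25a23 (0.24), Slc25a24 (0.68) and Slc25a25 (0.58). Slc25a3 stood at 763 FPKM (553 to 972) in MHC and at 292 FPKM (208 to 376) in Rbfox2 OE, a log2 ratio of -1.38 with a range of -2.22 to -0.56, which overlaps that of Slc25a4. The list for AMP sensing and AMP deamination had bounds apart for 3 of 8 tested. All 3 are subunits of the AMP-activated kinase, as most genes of this list are. Prkaa2, the main catalytic subunit of the AMP-activated kinase in heart, stood at 27.9 FPKM and 7.91 FPKM, a log2 ratio of -1.70. Prkab1 and Prkab2, its regulatory beta subunits, had log2 ratios of -1.22 and -1.11. Its other tested subunits, named after their values were seen, had overlapping bounds: Prkag2 (-1.22), Prkag1 (-0.58) and Prkaa1 (0.14). Of 6 nucleoside diphosphate kinases, Nme6 had bounds apart, at 13.2 FPKM and 4.65 FPKM. None of the 3 adenylate kinases described beside Ak1 had bounds apart.

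**Figure D4:**
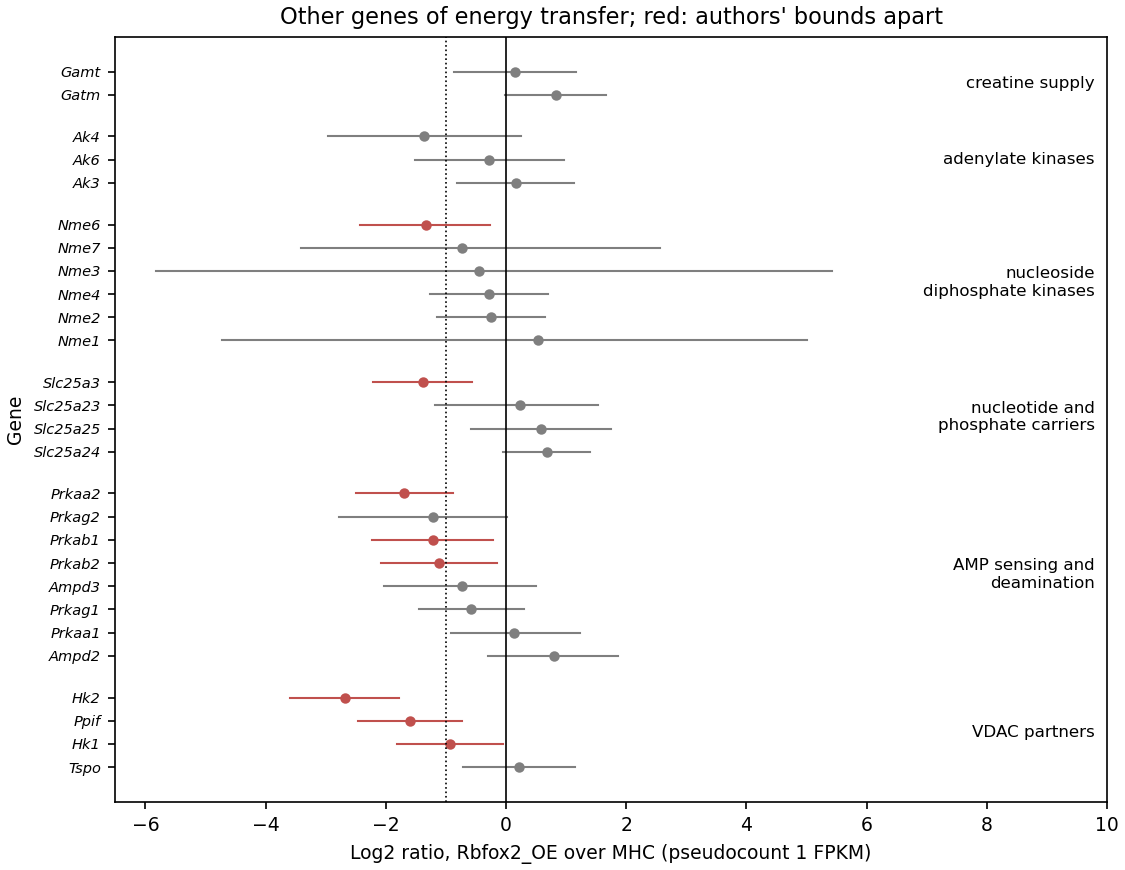
Log2 ratio, Rbfox2 OE to MHC (horizontal axis) for the 27 tested genes of the 6 lists of related genes, each with the range given by the authors' bounds, red where the bounds are apart. The red genes are Nme6, Slc25a3, Prkaa2, Prkab1, Prkab2, Hk2, Ppif and Hk1, and all lie left of 0.

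Markers of cell types also differed between the groups, lower for cardiomyocytes and higher for most other cells. Among all tested genes, bounds were apart downward for 9.33% and upward for 6.66%. The ventricular light chain gene Myl2 stood at 24688 FPKM and 18007 FPKM with overlapping bounds. Of 8 cardiomyocyte markers 7 could be compared, with log2 ratios from -2.42 to -0.32 and a median of -1.01, and 4 had bounds apart, all lower. Their summed FPKM was 57719 in MHC and 36329 in Rbfox2 OE, and Myh6 was listed at 0 in both because it had no estimate. Markers of other cells summed to 209 FPKM and 498 FPKM for fibroblasts (5 of 7 with bounds apart, all higher), 167 and 321 for endothelium (4 of 7), 109 and 376 for macrophages and leukocytes (7 of 8), 145 and 326 for smooth muscle and pericytes (3 of 7), and 56.6 and 295 for red blood cells (4 of 5). The neuronal and glial list summed to 9.11 FPKM and 12.7 FPKM, and its 1 tested gene had overlapping bounds. No marker beside Myh6 was listed at 0 in both groups. The part of the cell makeup in the lower values of the 10 genes was not tested.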

How the data were processed

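Cardiomyocyte libraries were grouped by their title labels. The deposited values are FPKM, estimated by the authors with Cuffdiff 2.2.1 (per the submitters' processing notes, which also name STAR 2.4.2a and GRCm38), 1 per gene and group. The deposited bounds are in FPKM, and their confidence level is not given in the sources used here, nor are the annotation, normalization mode and use of strand. Unused per-library columns numbered 0. Where 1 name covered several rows (110 names) their values were added, and genes with the status HIDATA (30 in MHC, 26 in Rbfox2 OE) were left out of ratios. Ratios used a pseudocount of 1 FPKM and a mean of at least 1 FPKM. Limma had been planned for values per library, and no test was run because the values are pooled. The calculation was tested on simulated data. All 10 genes are named, and related genes are named where their bounds are apart, with exceptions marked. One gene was left out of the lists of related genes and is not reported here. The genes and lists were chosen with earlier results of these data known. Alternatives covered pseudocount, filter, threshold, scaling, status and repeated names. For the 3′ region search the principal transcript of a gene was taken, and the longest of several. Positions are from GENCODE M21 on GRCm38, where 8 of the 10 identifiers matched with version. Tools were Python 3.11.15, pandas 2.3.3 and numpy 2.4.6.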

Additional observations from a re-analysis of the deposited data

How the results depend on the processing

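No paired analysis was possible because libraries I and II of a group were deposited as 1 combined value, and likewise fits without single libraries were not run. Of 40 alternative log2 ratios for the 10 genes, 39 kept their sign. All lay within the range of the authors' bounds, but these ranges are wide beside the shifts, so this could hardly fail and shows no robustness. The sign changed for Slc25a5, at 0.054 on rescaling without mitochondrial and top genes, which shifts Rbfox2 OE by 0.15 on the log2 scale. The number of the 10 genes lower at 2-fold was 2 as deposited, 1 on rescaling (Slc6a8), 5 at a 1.5-fold and 0 at a 4-fold threshold. Of the 11695 tested genes, 1172, 919, 2582 and 154 were lower under these settings in turn. Over the tested genes, 1172 were lower and 813 higher at 2-fold. A pseudocount of 5 FPKM gave 559 and 303, a 1.5-fold threshold 2582 and 1936, and a 4-fold threshold 154 and 135. A minimum mean of 5 FPKM gave 491 higher at 2-fold and 445 higher with bounds apart (779 as reported), since fewer genes are tested. A minimum of 20 FPKM, chosen after seeing the data, gave 430 lower and 182 higher at 2-fold, and 392 lower (1091 as reported) and 177 higher with bounds apart. Scaling moved the split of 2-fold genes: rescaling gave 919 lower and 1045 higher. Without values per library, differences between libraries of a group limit every result.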

Other observations

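The genes in these values were chosen after the values were seen. Slc25a4 exceeded the phosphate carrier gene Slc25a3 by a factor of 3.45 in MHC and 6.97 in Rbfox2 OE, with overlapping ranges, and the difference was not tested. Ak4, a mitochondrial matrix adenylate kinase, stood at 18.3 FPKM (bounds 8.57 to 28.0) and 6.53 FPKM (bounds 2.73 to 10.3), a log2 ratio of -1.36 with overlapping bounds.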
